A study of Rattus norvegicus with 13 samples.

Results

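The genes described here belong to the molecular program of axon loss: *Nmnat2*, *Sarm1*, the kinase genes *Map3k12*, *Mapk8* and *Mapk10*, the scaffold genes *Mapk8ip1* and *Mapk8ip3*, and the cell death genes *Casp9* and *Bcl2l1*. Members were the probe sets of the array whose platform annotation gives exactly 1 of these 9 symbols. This gave 16 probe sets for 8 genes, out of 31099 probe sets on the array and 14217 genes with a probe set of their own. *Mapk10* had none of its own: 2 probe sets carry both the *Mapk8* and the *Mapk10* symbol and were counted for neither gene.

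Rat cortical neurons were kept for 13 days in a compartmentalised microfluidic platform, in which axons grow into a chamber of their own. The neuron arrays (n = 3) hold uninjured material from the neuronal compartment, the regenerating axon arrays (n = 3) hold axons cut on day 11 and harvested after 2 days of regrowth, and the uninjured axon arrays (n = 7) hold axons that were not cut. For each array the material of 3 platforms was pooled and its RNA amplified in 2 rounds, and 3 culture batches supplied the uninjured axons. The strain and the age of the animals are not given in the labels.

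NMNAT2 makes NAD in the axon and is a short-lived protein that must be resupplied from the cell body. When it is lost, the NAD-cleaving enzyme SARM1 becomes active and the axon fragments. The kinase DLK, encoded by *Map3k12*, senses axonal injury and activates the JNK kinases through scaffold proteins of the JIP family, which also link to motor proteins. JNK signalling acts both on axon breakdown and on growth programs after injury, and caspase-9 and BCL-XL (*Bcl2l1*) govern the mitochondrial arm of cell death.

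The deposited values are linear ratios, and a ratio of 1 stands for the reference. The labels do not name that reference. Here uninjured axons were read as the reference, and the directions below depend on that. Uninjured array 7 reads 1 in every row, and arrays 1 to 3 and 4 to 6 each have a row median of 1, so 6 uninjured arrays carry a spread and array 7 carries none. A ratio holds no signal level, so the genes cannot be ordered by abundance, and presence in axons cannot be read from these values. Differences are on the log2 scale from limma, with the standard error (SE, n = 3 arrays against a reference given the error of 1 array) and a p adjusted over 31042 probe sets. Separate cultures are not stated for the arrays within a group, so p-values measure only the spread between these samples, possibly a technical one. In such pooled material fewer axons or cells and less RNA in each cannot be told apart.

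Among cell type markers, 15 of 19 probe sets of 10 neuronal genes were higher in neurons and 1 was lower (median log2 3.04). Astrocyte markers rose as well, with 10 of 16 probe sets higher and 2 lower (median 2.55), so the markers do not single out neurons. For the oligodendrocyte lineage 3 of 11 probe sets were higher and 1 lower, and for dividing cells 2 of 7 and 1. Over the array 28.4% were higher and 27.5% lower. None of 9 microglial or 12 fibroblast and vascular probe sets was higher, while 7 of the microglial and 6 of the fibroblast and vascular ones were lower. The hybridisation controls, transcripts added in a set amount, read 0.254, 0.855 and 0.158 times the reference on neuron arrays 1, 2 and 3, between 1.11 and 1.61 on the regenerating arrays, and between 0.901 and 1.05 on the measured uninjured arrays. The difference between 3′ and 5′ control probe sets of GAPDH was log2 -2.22 to -1.74 in neurons, -1.14 to -0.48 in regenerating axons and -0.15 to 0.48 in uninjured axons. The same difference for beta-actin went the other way in neurons, at log2 0.42 to 0.78. It was -0.63 to 0.02 in regenerating axons and -0.05 to 0.23 in uninjured axons. On neuron arrays 1, 2 and 3 the 3′ beta-actin control itself read 71.2, 38.4 and 80.1 times the reference, and the 5′ one 41.4, 28.6 and 52.7. The part of these differences in the results was not tested, except that every comparison was also run with the arrays aligned on the hybridisation controls. Under that alignment no microglial or fibroblast and vascular probe set passed as lower in neurons, and 1 fibroblast and vascular probe set passed as higher.

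Upstream sequences are shown for *Map3k12* and *Mapk8*, which had the highest neuronal ratios. That of *Nmnat2*, which lay on the other side of the reference without passing the test, is shown too. Each is the 250 bases before the annotated start in the RefSeq table of build GRCr8, at chr7:135526273-135526522 (minus strand), chr16:8728226-8728475 (minus strand) and chr13:67655557-67655806 (plus strand) in that order. Capitals mark the letters GGGCGG (GC box) and TGACG (core of a cyclic AMP response element) on either strand.
Map3k12: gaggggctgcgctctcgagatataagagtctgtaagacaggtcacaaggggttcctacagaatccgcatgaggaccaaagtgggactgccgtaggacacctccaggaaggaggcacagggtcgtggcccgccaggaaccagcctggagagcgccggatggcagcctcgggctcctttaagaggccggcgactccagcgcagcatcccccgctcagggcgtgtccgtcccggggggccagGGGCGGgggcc
Mapk8: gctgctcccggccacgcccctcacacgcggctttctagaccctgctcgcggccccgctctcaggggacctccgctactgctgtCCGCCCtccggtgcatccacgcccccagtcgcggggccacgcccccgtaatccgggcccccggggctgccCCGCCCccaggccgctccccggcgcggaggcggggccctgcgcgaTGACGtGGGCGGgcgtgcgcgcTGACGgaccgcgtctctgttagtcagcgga
Nmnat2: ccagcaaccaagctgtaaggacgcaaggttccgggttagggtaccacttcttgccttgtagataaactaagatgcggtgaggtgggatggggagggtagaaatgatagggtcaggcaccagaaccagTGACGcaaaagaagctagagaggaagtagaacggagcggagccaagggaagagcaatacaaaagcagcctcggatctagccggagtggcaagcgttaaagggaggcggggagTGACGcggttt
The *Map3k12* window holds 1 GC box and 0 TGACG cores, that of *Mapk8* 3 and 2, and that of *Nmnat2* 0 and 2. The windows not shown hold 3 and 1 (*Casp9*), 2 and 2 (*Mapk8ip3*), 1 and 0 (*Sarm1*) and 0 and 2 (*Mapk10*). The 2 *Mapk10* cores overlap in 1 stretch, TGACGTCA, which matches on both strands. Each *Bcl2l1* entry holds 0 and 0. GC boxes thus also occur for genes with a probe set called lower in neurons, *Casp9* and *Mapk8ip3*. Of 33469 such windows in the table, 30.5% hold a GC box and 18.2% a TGACG core. The letters TGANTCA (AP-1) occur in 6.34% of all windows and in none of the 11 entries found for 8 of the 9 genes. These matches describe the letters only.

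In neurons, as against uninjured axons, the upstream kinase gene *Map3k12*, 3 of 4 *Mapk8* probe sets and both *Mapk8ip1* probe sets were higher, by 2.12-fold to 9.12-fold. *Mapk8ip3* and 1 probe set each of *Casp9* and *Bcl2l1* were lower, by 1.54-fold to 2.27-fold, and the sign of these 3 turned when arrays were aligned on the hybridisation controls. Thus 6 of 16 probe sets passed as higher, against 28.4% of all probe sets on the array, and 3 passed as lower, against 27.5%. The share of members is above that of the array for the higher calls and below it for the lower ones, in each case by few probe sets. The median difference was log2 0.27 over the members and -0.07 over all probe sets.

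**Figure D1:**
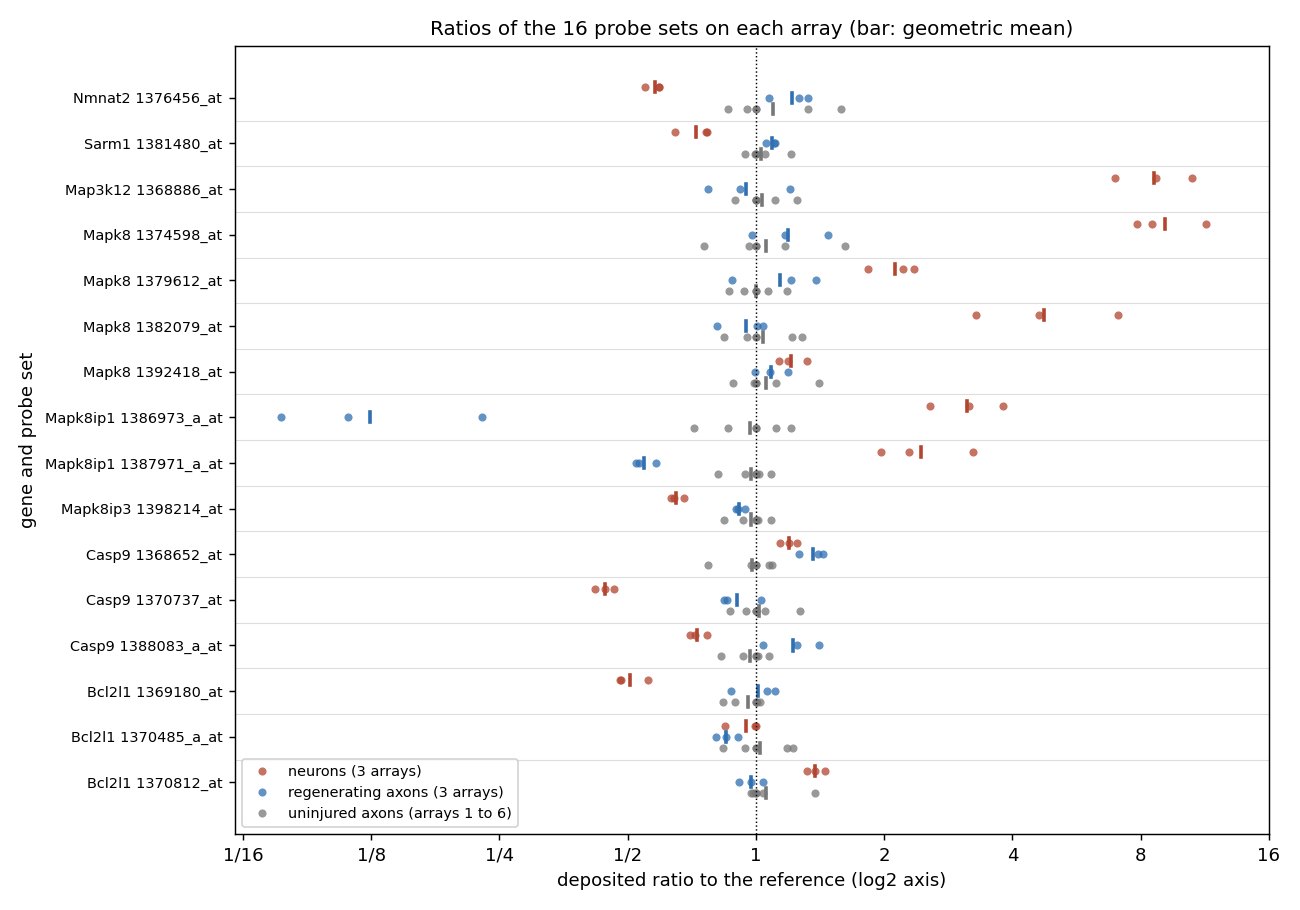
Deposited ratio of each of the 16 probe sets on each array (horizontal log2 axis, 1 is the reference), with neurons above regenerating axons above uninjured axons within each row and a bar at the geometric mean. *Map3k12* and *Mapk8* 1374598_at lie near 9 in neurons, and *Mapk8ip1* 1386973_a_at lies between 0.0769 and 0.227 in regenerating axons.

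*Map3k12*, the gene for DLK, read 8.71, 6.95 and 10.6 times the reference in neurons, while the uninjured arrays lay between 0.894 and 1.25 with a median of 1. The groups are far apart, and the lowest neuron array stands over the highest uninjured array by several fold. The difference was log2 3.11 ± 0.27 (adjusted p = 1.98e-05). In regenerating axons the same probe set read 0.919, 0.770 and 1.20, which overlaps the uninjured range (log2 -0.08 ± 0.26, adjusted p = 0.964).

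*Mapk8*, which encodes JNK1, had 4 probe sets that gave different sizes. Probe set 1374598_at read 8.52, 11.4 and 7.83 in neurons, against 0.756 to 1.61 (median 1) in uninjured axons. Its difference of log2 3.19 ± 0.37 (adjusted p = 0.000117) was the largest among the members, and 5.88% of all probe sets on the array were at or above it. Probe set 1382079_at read 4.61, 7.09 and 3.29 in neurons, against 0.840 to 1.28 in uninjured axons (log2 2.25 ± 0.38, adjusted p = 0.00107). Probe set 1379612_at read 2.35, 1.83 and 2.21 in neurons, against 0.862 to 1.18 in uninjured axons (log2 1.08 ± 0.23, adjusted p = 0.00339). In all 3 of these the neuron arrays lay above every uninjured array, as they did in 33.1% of probe sets on the array. Probe set 1392418_at read 1.32, 1.13 and 1.19 in neurons, inside the uninjured range of 0.882 to 1.41, and did not pass (log2 0.28 ± 0.26, interval -0.30 to 0.85, adjusted p = 0.378). Probe sets target different stretches of a transcript, and the table does not say which.

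The *Mapk8* probe sets were also compared within each array, where the scaling of the array cancels. Of their 6 pairs 4 differed in neurons by amounts outside the uninjured range, as did 60.4% of 9597 same-gene pairs over the array. Nothing particular to *Mapk8* is read from this count. The widest *Mapk8* pair was 1374598_at over 1392418_at, by log2 2.69 to 3.32 in the neuron arrays, against -0.39 to 0.54 in the uninjured arrays. The pairs that overlapped were these: 1374598_at over 1382079_at was log2 0.68 to 1.25 in neurons, against -0.76 to 0.69 in uninjured axons, and 1382079_at over 1379612_at was 0.57 to 1.96, against -0.35 to 0.57. In regenerating axons none of the 4 probe sets passed. Their ratios there lay between 0.812 and 1.48, with differences of log2 -0.08 to 0.25 and adjusted p-values of 0.895 to 0.963.

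The 2 probe sets annotated to both *Mapk8* and *Mapk10*, which encodes the neuronal kinase JNK3, cannot be assigned to 1 gene. Probe set 1377059_at read 4.95, 3.51 and 6.33 in neurons, against 0.895 to 1.21 in uninjured axons (log2 2.26 ± 0.31, adjusted p = 0.000281). Probe set 1369102_at read 1.89, 1.69 and 2.26 in neurons, against 0.916 to 1.22 in uninjured axons (log2 0.95 ± 0.22, adjusted p = 0.00565). On both the neuron arrays stood above all uninjured arrays. In regenerating axons 1369102_at read 0.815, 0.843 and 0.692, below every uninjured array, and did not pass (log2 -0.36 ± 0.20, adjusted p = 0.581). There 1377059_at read 0.806, 0.678 and 1.20, which overlaps the uninjured range (log2 -0.20 ± 0.29, adjusted p = 0.899).

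The scaffold genes went opposite ways in neurons, except with the arrays aligned on the hybridisation controls, where both lay above the reference. *Mapk8ip1* encodes JIP1, which assembles the JNK cascade and binds kinesin. Its probe set 1386973_a_at read 3.17, 2.56 and 3.79 in neurons, against 0.715 to 1.21 (median 1) in uninjured axons (log2 1.65 ± 0.31, adjusted p = 0.00188). Probe set 1387971_a_at read 2.28, 1.97 and 3.24 in neurons, against 0.816 to 1.08 in uninjured axons (log2 1.29 ± 0.28, adjusted p = 0.00359). For both, no neuron array reached down to the uninjured range.

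*Mapk8ip3* encodes JIP3, a JNK scaffold that couples cargo and DLK signalling to kinesin and dynein. Its probe set read 0.677, 0.643 and 0.631 in neurons, against 0.843 to 1.08 in uninjured axons. The 3 neuron arrays lay below every uninjured array (log2 -0.62 ± 0.20, adjusted p = 0.0229), but the sign turned to log2 1.0 (adjusted p = 0.412) with the arrays aligned on the hybridisation controls. Within an array, where scaling cancels, *Mapk8ip1* 1386973_a_at exceeded *Mapk8ip3* by log2 2.23, 1.99 and 2.59 in neurons, against -0.50 to 0.28 in uninjured axons.

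*Nmnat2* and *Sarm1* read below the reference in neurons without passing the test, and above it with the arrays aligned on the hybridisation controls. *Nmnat2* read 0.594, 0.594 and 0.548 in neurons, against 0.860 to 1.58 (median 1) in uninjured axons. All neuron arrays lay below all uninjured arrays, which held for 36.8% of probe sets on the array. The difference was log2 -0.79 ± 0.32 (interval -1.51 to -0.07, adjusted p = 0.0598). The spread over the uninjured arrays entered this value strongly: without uninjured array 6, which read 1.58, the adjusted p was 0.0206, and without uninjured array 4, which read 0.860, it was 0.0442. With the spread pooled over all 3 groups it was 0.0404.

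*Sarm1* read 0.763, 0.769 and 0.645 in neurons, against 0.941 to 1.21 in uninjured axons, again with no overlap (log2 -0.47 ± 0.21, adjusted p = 0.0796). The geometric means of *Nmnat2* and *Sarm1* in neurons were 1.73-fold and 1.38-fold below the reference, and both lay above it with the arrays aligned on the hybridisation controls (log2 0.83 and 1.15, adjusted p = 0.491 and 0.345).

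The cell death genes gave a different answer from each probe set. For *Casp9*, the initiator caspase of the mitochondrial pathway, probe set 1370737_at read 0.465, 0.419 and 0.441 in neurons, against 0.871 to 1.27 in uninjured axons (log2 -1.18 ± 0.23, adjusted p = 0.00204). Probe set 1388083_a_at read 0.719, 0.766 and 0.701 in neurons, against 0.827 to 1.07 in uninjured axons (log2 -0.46 ± 0.20, adjusted p = 0.0757). Probe set 1368652_at read 1.14, 1.20 and 1.25 in neurons, just above the uninjured range of 0.771 to 1.09 (log2 0.26 ± 0.22, adjusted p = 0.340). Only the first passed.

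*Bcl2l1* encodes BCL-XL, which holds BAX in check and protects axons. Its probe set 1369180_at read 0.483, 0.557 and 0.481 in neurons, against 0.836 to 1.02 in uninjured axons (log2 -0.98 ± 0.20, adjusted p = 0.00290). Probe set 1370485_a_at read 0.847, 1.0 and 0.995 in neurons, inside the uninjured range of 0.839 to 1.22 (log2 -0.08 ± 0.25, adjusted p = 0.794). Probe set 1370812_at read 1.38, 1.32 and 1.45 in neurons, against 0.972 to 1.37 in uninjured axons, and overlapped them at 1 array (log2 0.46 ± 0.22, adjusted p = 0.0989). Of 13 pairs of probe sets of the same gene, over 4 genes, 11 differed within arrays by amounts that did not overlap between neurons and uninjured axons. The same was seen in 60.4% of 9597 such pairs over the array, and the pairs of a gene share probe sets, so nothing particular to these genes is read from the count.

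The 7 member probe sets below the reference in neurons were set against 28 probe sets taken by symbol as smell, taste and pheromone receptors. These ran from log2 -1.61 to 0.20 (median -1.0, 19 of them called lower), and all 7 lay within that range. Cortical cells were taken to use few of these receptors, which was not tested. The other 9 member probe sets lay above that range. Its upper end was *Olr1* alone, which was taken in by its letters and may not be a smell receptor. The next highest, *Tas2r105*, was at log2 -0.13, and *Bcl2l1* 1370485_a_at, at -0.08, lay above that value. With arrays aligned on the hybridisation controls all 7 members below the reference turned sign and none passed as lower. The 6 that passed as higher still did, at log2 2.70 to 4.81. *Casp9* 1370737_at was then at log2 0.44 (adjusted p = 0.701) and *Bcl2l1* 1369180_at at 0.64 (adjusted p = 0.589).

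**Figure D2:**
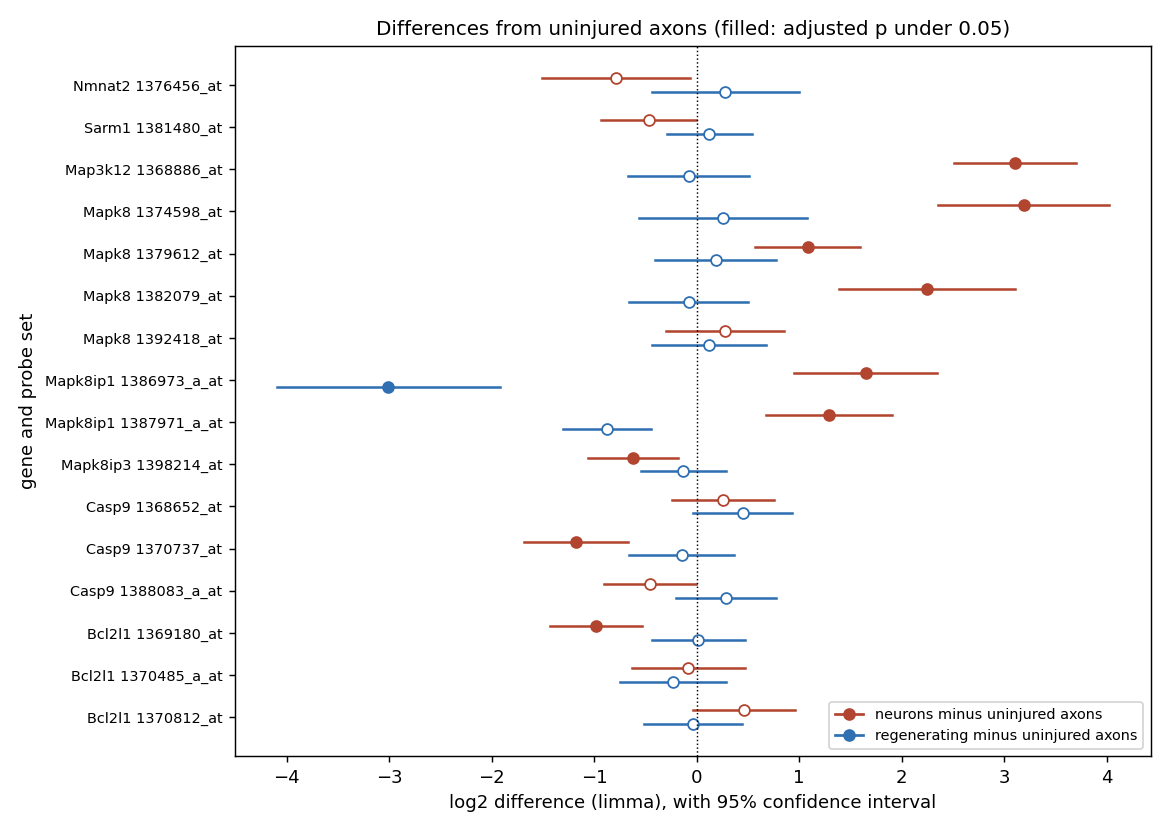
Log2 difference from uninjured axons with its 95% interval for neurons (upper point of each row) and regenerating axons (lower point). Filled points passed at an adjusted p under 0.05. Of the neuron values 6 passed as higher and 3 as lower, the 3 changing sign with arrays aligned on the hybridisation controls, and of the regenerating values only *Mapk8ip1* 1386973_a_at passed.

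In regenerating axons, as against uninjured axons, *Mapk8ip1* was the only member gene with a called probe set. Probe set 1386973_a_at read 0.227, 0.110 and 0.0769 in regenerating axons, against 0.715 to 1.21 (median 1) in uninjured axons. Every regenerating array lay below every uninjured array, and the 3 regenerating values themselves spread widely (SD 0.80 on the log2 scale). The fall was 8.03-fold (log2 -3.01 ± 0.49, interval -4.10 to -1.92, adjusted p = 0.0448). On the array, 227 probe sets were at or below this difference. The call was lost without regenerating array 2 (adjusted p = 0.134), regenerating array 3 (0.109) or uninjured array 2 (0.0809), 5 (0.0646) or 6 (0.0808), while the value stayed between log2 -3.44 and -2.66 when each of 9 arrays was left out in turn.

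The second *Mapk8ip1* probe set, 1387971_a_at, read 0.583, 0.524 and 0.531 in regenerating axons, against 0.816 to 1.08 in uninjured axons. These groups did not overlap, but the difference did not pass (log2 -0.87 ± 0.19, interval -1.30 to -0.45, adjusted p = 0.103). Groups apart in the lower direction were seen in 10.9% of all probe sets. Within each regenerating array 1386973_a_at lay below 1387971_a_at (log2 -2.79 to -1.36), against -0.19 to 0.16 in uninjured axons. Both *Mapk8ip1* probe sets lay below the lowest of the smell, taste and pheromone receptor values (log2 -0.16 to 0.82 in regenerating axons). Averaged over its probe sets, the gene was at log2 -1.94 ± 0.31 (adjusted p = 0.0350 in limma over 14217 genes).

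Some other transcripts also read low on the regenerating arrays. The mean ratio of the 19 neuronal marker probe sets was 0.551 to 0.680 on the regenerating arrays, against 0.892 to 1.37 on the measured uninjured arrays. Of these 0 of 19 were called (13 below 0 and 6 above 0, log2 -4.48 to 0.37). The 3′ beta-actin control read 0.63 to 0.81, against 0.965 to 1.17. Its 5′ counterpart overlapped the uninjured arrays, at 0.80, 1.07 and 0.82 on regenerating arrays 1, 2 and 3, against 0.852 to 1.06. The part of these in the *Mapk8ip1* value was not tested. With arrays aligned on the hybridisation controls the value was log2 -3.46 (adjusted p = 0.0106), and the second probe set then passed too (log2 -1.33, adjusted p = 0.0381).

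The other 14 probe sets did not pass in regenerating axons. Their geometric mean ratios lay between 0.853 and 1.36, with differences of log2 -0.23 to 0.45 and adjusted p-values of 0.50 to 0.993. The lowest and the highest bound of their 95% intervals were log2 -0.74 and 1.07, which is the size of change these arrays leave undecided. In all, 0 of 16 probe sets passed as higher and 1 as lower in limma, with 2 at an unadjusted p under 0.05, against 10.9% of all probe sets. Over the array 0.00966% passed as higher and 0.335% as lower.

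*Nmnat2* read 1.32, 1.26 and 1.08 in regenerating axons, against 0.860 to 1.58 in uninjured axons (log2 0.28 ± 0.32, interval -0.44 to 1.0, adjusted p = 0.855). *Sarm1* read 1.11, 1.1 and 1.06 in regenerating axons, against 0.941 to 1.21 in uninjured axons (log2 0.12 ± 0.19, adjusted p = 0.900). Both lay inside the uninjured range. *Mapk8ip3* read 0.906, 0.942 and 0.896 in regenerating axons, against 0.843 to 1.08 in uninjured axons (log2 -0.13 ± 0.19, adjusted p = 0.898).

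*Casp9* 1368652_at read 1.26, 1.43 and 1.4 in regenerating axons, above every uninjured array (0.771 to 1.09), as did 10.3% of probe sets on the array. Its difference was log2 0.45 ± 0.21 (interval -0.03 to 0.93, adjusted p = 0.50). The other *Casp9* probe sets read 0.841 to 1.03 (1370737_at) and 1.04 to 1.4 (1388083_a_at) in regenerating axons, and both overlapped the uninjured arrays. The 3 *Bcl2l1* probe sets read between 0.806 and 1.11 in regenerating axons, with differences of log2 -0.23 to 0.02 and adjusted p-values of 0.824 to 0.993.

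Regenerating axons were also set directly against neurons, which requires that both were divided by the same reference, a point the labels leave unstated. Of the 16 probe sets 6 were higher in regenerating axons, against 37.3% of the array, and 7 were lower, against 35.2%. *Mapk8ip1* showed the widest gap: 1386973_a_at was 25.2-fold lower in regenerating axons than in neurons (log2 -4.65 ± 0.37, adjusted p = 1.40e-05) and 1387971_a_at was 4.48-fold lower (log2 -2.16 ± 0.21). *Map3k12* was 9.10-fold lower (log2 -3.19 ± 0.23), and 3 *Mapk8* probe sets were lower by log2 values of -2.94, -2.33 and -0.90.

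The members on the other side were *Nmnat2* (log2 1.07 ± 0.15, adjusted p = 0.000388), *Sarm1* (0.59 ± 0.15, adjusted p = 0.00760), *Mapk8ip3* (0.49 ± 0.14), *Bcl2l1* 1369180_at (1.0 ± 0.16) and *Casp9* 1370737_at (1.03 ± 0.16) and 1388083_a_at (0.75 ± 0.17), all higher in regenerating axons than in neurons except with the arrays aligned on the hybridisation controls. For *Nmnat2* the 3 regenerating arrays (1.32, 1.26 and 1.08) stood above the 3 neuron arrays (0.594, 0.594 and 0.548), as did 40.4% of probe sets. All 6 turned sign under that alignment, where *Nmnat2* was at log2 -1.01 (adjusted p = 0.260). *Bcl2l1* 1370812_at was lower in regenerating axons (-0.50 ± 0.15).

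The spread of the 16 probe sets within an array does not depend on how the array was scaled. From the lowest to the highest member it was log2 4.23 to 4.76 on the neuron arrays and 2.60 to 4.19 on the regenerating arrays. On the measured uninjured arrays it was 0.62 to 0.85. Those were divided by the row median of their own set, which narrows their spread, so they cannot be set evenly against the other groups. On the regenerating arrays the low end was *Mapk8ip1* each time. Over the 6 uninjured arrays the highest ratio of a probe set exceeded its lowest by 1.22-fold (*Bcl2l1* 1369180_at) to 2.13-fold (*Mapk8* 1374598_at), and this leaves out differences between the ratio sets, which were divided away.

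By the root mean square difference of log2 ratios over 12 arrays, the gene nearest to *Nmnat2* was *Slco5a1* (0.09), to *Sarm1* *Rcor2* (0.08), to *Map3k12* *Sik2* (0.14) and to *Mapk8ip3* *Mmel1* (0.09), among 20550 probe sets. The 4 *Mapk8* probe sets had 4 different neighbours, *Pcmtd1*, *Sdc2*, *Gpc4* and *Tafazzin*. *Mapk8ip1* 1386973_a_at was nearest to *Nme1*, at 0.31 the least close match, and 1387971_a_at to *Ackr3* (0.15). The *Casp9* probe sets were nearest to *Gtpbp3*, *Col6a1* and *Irx3*, and those of *Bcl2l1* to *Yipf7*, *Dkk3* and *Mlst8*.

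Related genes of the same pathways lay on both sides of the reference in neurons, the lower side only without alignment on the hybridisation controls. Of 33 probe sets for other JNK pathway kinases, scaffolds and phosphatases 19 were higher in neurons and 4 lower, against 28.4% and 27.5% of all probe sets on the array (median log2 0.81, against -0.07 for all probe sets). *Spag9*, which encodes the scaffold JIP4, was highest at log2 4.45 ± 0.74 by 1 of its 4 probe sets, whose values ran from -0.62 to 4.45. The kinase gene *Map4k4* was at 3.95 ± 0.64 by 1 of its 3 probe sets, the lowest of which was at 1.07. *Mapk8ip2*, the gene for JIP2, was at -1.42 ± 0.27, with the JNK phosphatase gene *Dusp10* at -0.85 ± 0.23.

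Among 22 probe sets of DLK and JNK targets 11 were higher in neurons and 3 lower (median log2 0.84), with the array at 28.4% and 27.5%. *Stmn2*, which encodes a microtubule regulator that is lost early from injured axons, was at 5.93 ± 0.84 by 1 of its 2 probe sets and at 2.53 by the other. *Dcx*, for the JNK substrate doublecortin, was split between its probe sets at 4.29 ± 0.45 and -1.20 ± 0.40, both past the threshold, and *Bcl2l11*, the gene for BIM, was at -1.31 ± 0.26 by 1 of 3 probe sets. None of the 22 passed in regenerating axons. Chosen after their values were seen, *Stmn2* was at log2 -3.24 ± 0.99 and -4.48 ± 1.21 there and *Stmn1* at -2.56 ± 0.60, with adjusted p-values of 0.211, 0.162 and 0.120.

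Of 19 probe sets for NAD synthesis and consumption 8 were higher in neurons and 5 lower (median log2 -0.09), with the array at 28.4% and 27.5%, and the share of lower ones was near that of the array. At the ends stood the deacetylase genes *Sirt2* (4.08 ± 0.29) and *Sirt3* (2.77 ± 0.57) on the upper side, and the NAD synthesis gene *Qprt* (-1.44 ± 0.28) and the NAD kinase gene *Nadk* (-1.08 ± 0.19) on the lower. The second *Nadk* probe set was at log2 1.58 ± 0.48 and passed as higher (adjusted p = 0.0185 in limma), so this gene was split. None of the 19 passed in regenerating axons.

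Of 19 BCL2 family probe sets 5 were higher in neurons and 5 lower (median log2 0.15), both near the 28.4% and 27.5% of the array. The proapoptotic *Bad* was at 2.79 ± 0.47, and the prosurvival *Mcl1* was at 2.57 ± 0.41 by 1 of its probe sets and at 0.12 by the other. *Bcl2l11* was as above, and the prosurvival *Bcl2l2* was split, at -0.90 ± 0.24 by 1 probe set and at 0.63 by the other (adjusted p = 0.0704 in limma). *Bad* was the 1 family member that passed in regenerating axons, where it fell 3.19-fold (log2 -1.67 ± 0.25, adjusted p = 0.0361). Over the array 0.335% passed as lower there. Without regenerating array 3 no probe set of the array passed as lower, so the *Bad* call was lost. Of 19 probe sets for caspases and their partners 7 were higher in neurons and 5 lower (median -0.03), not far from the 28.4% and 27.5% of the array. *Casp2* was at 2.24 ± 0.29 by 1 probe set and at 0.12 by the other, and the mitochondrial flavoprotein gene *Aifm1* at 2.11 ± 0.35, while the initiator caspase gene *Casp8* was at -1.35 ± 0.22. *Apaf1*, whose product activates caspase-9, had 1 probe set at -1.02 ± 0.23 and another at 1.70. None of these 19 passed in regenerating axons.

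Of 26 probe sets for NMNAT2 turnover, calpains and death receptors 16 were higher in neurons and 3 lower (median log2 2.11), with the array at 28.4% and 27.5%. *App*, the amyloid precursor gene, was at 5.43 ± 0.60 by 1 of its 3 probe sets, the lowest of which was at 1.14. *Mycbp2*, whose ubiquitin ligase removes NMNAT2, was at 4.01 ± 0.68 by 1 of 3 probe sets that reached down to -0.60. The protease gene *Capn1* was at -1.02 ± 0.18. *Akt1* had probe sets on both sides in neurons (-1.13 to 2.97), and its probe set 1383126_at fell 3.39-fold in regenerating axons (log2 -1.76 ± 0.30, adjusted p = 0.0495), while the other *Akt1* probe sets were at 0.57 and 0.15 there and did not pass. The 1383126_at call, against 0.335% called lower over the array, was likewise lost without regenerating array 3. With the arrays aligned on the hybridisation controls no probe set of these lists passed as lower in neurons, all their named values below 0 turned positive, and 18, 12, 8, 5, 6 and 17 probe sets passed as higher in the order given here. None of the named values was below the lowest receptor gene in neurons. *Bad* and *Akt1* were then at log2 -2.13 and -2.22 in regenerating axons.

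**Figure D3:**
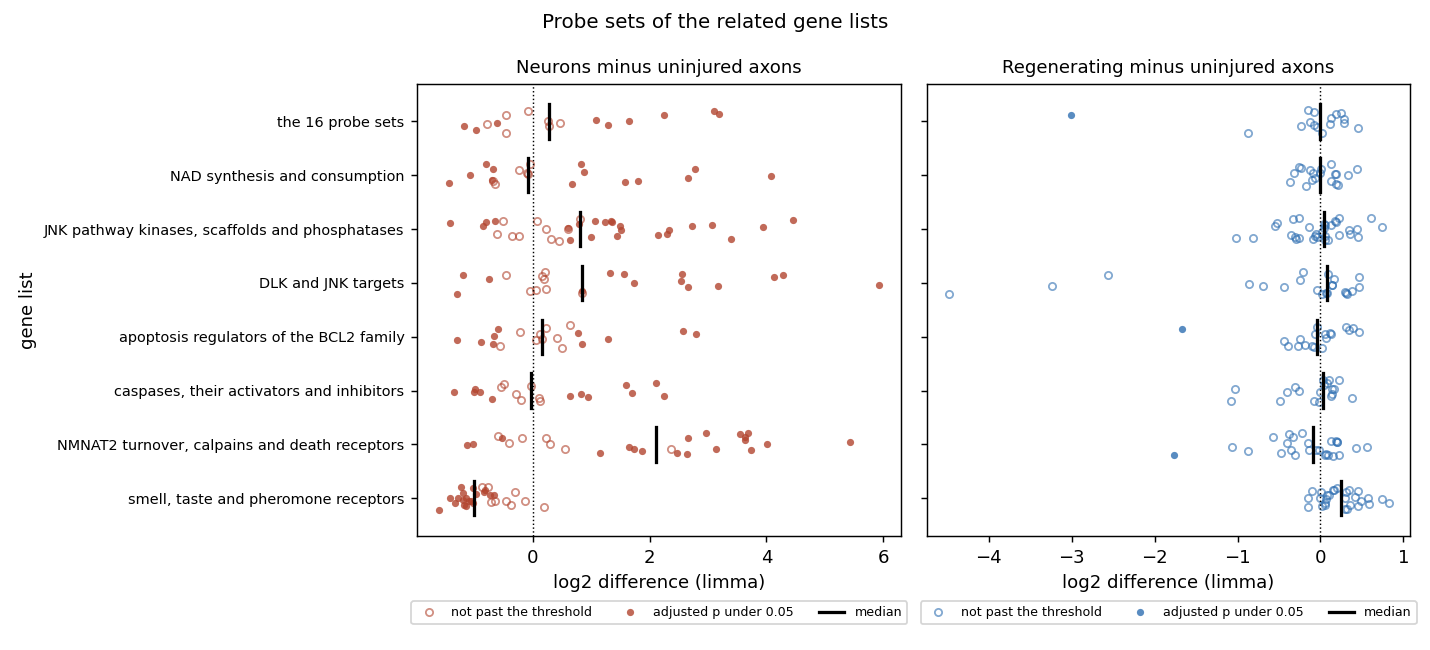
Log2 difference from uninjured axons of each probe set of the related gene lists (1 point per probe set, filled where the adjusted p was under 0.05, black bar at the list median, vertical scatter within a row without meaning). Neurons are on the left, with list medians of -1.0 to 2.11, and regenerating axons on the right, where 3 of the points shown passed, for *Mapk8ip1*, *Bad* and *Akt1*.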

How the data were processed

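Rat GeneChip arrays of neurons (3), regenerating axons (3) and uninjured axons (7) were read from the deposited value table. Its values are linear ratios to an unstated reference, found from the deposited values themselves. Per the submitters' processing notes RMA was used, with no version or settings given, and the step that made ratios is not given in the sources used here. Scanner files were not used here. Columns were matched to samples by title. Of 31042 probe sets that are not controls, 20826 have 1 symbol in the platform annotation, 436 several and 9780 none. The identifiers of the 8 measured genes matched the GRCr8 gene table.

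Log2 ratios were fitted per probe set in R 4.3.3 by lmFit and eBayes of limma 3.58.1. Against uninjured axons, the 3 arrays were set against array 7, which stood for the reference with the error of 1 array. The spread came from those 3 arrays and from uninjured arrays 1 to 3 and 4 to 6 about the mean of their set. Regenerating axons and neurons were compared as 2 groups. P-values were adjusted by Benjamini and Hochberg over all 31042 probe sets, threshold 0.05, and intervals are 95%. In simulated ratios for neurons against uninjured axons over 31042 probe sets, the fit called 39 of 50 rises and 33 of 50 falls of log2 2, 14 of 50 rises and 18 of 50 falls of log2 1, and 5 of 30842 unchanged probe sets. The simulation changed only 200 probe sets, while in the data 8820 were called higher and 8523 lower in neurons. Its noise was taken from the uninjured arrays alone. Its counts therefore do not give the sensitivity of the fit to these data. The number of arrays limits the precision.

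Members, lists and tests were chosen with earlier results of these data known. All member probe sets are named. Of each list the 2 largest rises and 2 largest falls past the threshold, 1 probe set per gene, are named, and for each member the nearest other gene. Same-numbered arrays correlated in their deviations from group means at r = -0.31 to 0.13, so the numbers were not taken to pair them. Alternatives were other scalings, a pseudocount of 0.1, filters, means per gene, other references, a replicate block and leaving out each array.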

Additional observations from a re-analysis of the deposited data

Results flagged for a closer look

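In 2 of 16 probe sets 1 of the 6 measured uninjured arrays stood far from the other 5 on the log2 scale, by its gap to the nearest array as a share of the group's range. *Casp9* 1368652_at read 0.771 on uninjured array 4, against 0.972 to 1.09 on the others (share 0.665). *Bcl2l1* 1370812_at read 1.37 on uninjured array 6, against 0.972 to 1.04 on the others (share 0.805), and this array is the one that overlapped the neuron arrays. Such a gap arises by chance in about 1 of 20 groups, and these ratios were divided by the median of their own set.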

How the results depend on the processing

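Of 784 values of single probe sets under alternatives, 748 stayed on their side of the threshold (a value that was not called may have turned sign), 5 lost the call, 21 gained it and 10 turned sign with a call in at least 1 of the fits. All 10 came from aligning arrays on their hybridisation controls. In neurons against uninjured axons these were *Mapk8ip3* (log2 1.0), *Casp9* 1370737_at (0.44) and *Bcl2l1* 1369180_at (0.64). In regenerating axons against neurons they were *Nmnat2* (-1.01), *Sarm1* (-1.49), *Mapk8ip3* (-1.59), *Bcl2l1* 1369180_at (-1.08) and *Casp9* 1370737_at (-1.04), 1388083_a_at (-1.33) and 1368652_at (-1.89, adjusted p = 0.0381 in limma). That setting left 0 member probe sets called lower in neurons and 0 called higher in regenerating axons than in neurons, and 2 called lower in regenerating than in uninjured axons. Leaving out the reference's error, or with the 6 uninjured arrays as 1 group (chosen after seeing the data), 6 were lower in neurons, and 1 was higher and 2 were lower in regenerating axons. *Nmnat2* was then lower in neurons at an adjusted p of 0.00114 and 0.000959. Over all probe sets, 8523 were lower in neurons, against 15 with hybridisation alignment, 4526 among single-symbol probe sets and 12959 without the reference's error. In regenerating against uninjured axons 3 were higher and 104 lower, against 0 and 969 with hybridisation alignment, 3539 and 3707 without the reference's error, 2298 and 2924 with 1 uninjured group, 68 and 600 with the replicate block, 6 higher among single-symbol probe sets and 48 lower with pooled spread. In regenerating axons against neurons 11568 were higher and 10930 lower, against 26 and 17681 with hybridisation alignment and 6399 higher among single-symbol probe sets. Leaving out each array in turn gave 0 to 1 members lower in regenerating than in uninjured axons (all probe sets: 0 to 462 lower and 0 to 17 higher). The replicate block gave 5 members lower in neurons, with *Nmnat2* at log2 -0.90 (adjusted p = 0.00763), and moved no other count of members by over 1.5 times, but the numbers were not taken to pair the arrays. Averaged per gene, *Casp9* was lower in neurons (log2 -0.46 ± 0.17, adjusted p = 0.0420) and *Bcl2l1* did not pass (-0.20 ± 0.19). Signal over background is unknown for these ratios. Counts among single-symbol probe sets are lower where fewer probe sets were tested, and the cause of the other shifts was not tested.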
